A study of Homo sapiens with 6 samples.

Results

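The genes described here encode the proteasome and the proteins that assemble and regulate it. They were taken as the protein-coding genes on autosomes whose symbols start with PSMA, PSMB, PSMC, PSMD, PSME, PSMF or PSMG. The rule found 49 genes among 19970 protein-coding genes on chromosomes 1 to 22 and X. It uses symbols only and no measured value. PSMC3IP and PSME3IP1 meet it by symbol but are named for their interaction with PSMC3 and PSME3. The other members encode proteasome subunits, activators, assembly factors or, for PSMF1, an inhibitor. PSMD10, a base assembly chaperone on chromosome X, falls outside the rule.

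The chromatin data came from KMS-11, a human line of plasma cell myeloma, in which the Tn5 transposase had cut accessible DNA (ATAC-seq). The control group held 3 libraries whose treatment is labelled LentiV2, and the ATF4 knockdown group held 3 libraries labelled LentiV2_ATF4g3. All 6 libraries have the genotype label WT, and each group is numbered as biological replicates 1 to 3. The knockdown rests on a single guide label in 1 cell line, and how the guide acts is not stated in the labels. Peak lists measure neither ATF4 transcript nor protein, so the knockdown itself was not checked here. Nothing states whether the replicates were separate cultures, so a p-value below measures only the spread between these libraries. ATF4 is a transcription factor of the stress response, and the comparison of the groups asks where accessible chromatin differed once it was knocked down.

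The 26S proteasome degrades proteins tagged with ubiquitin. Its 20S core is a barrel of alpha rings around beta rings, and the beta subunits PSMB5, PSMB6 and PSMB7 carry the constitutive proteolytic sites. Interferon and immune cells bring in PSMB8, PSMB9 and PSMB10, which replace them in the immunoproteasome and favour peptides that fit MHC class I molecules. The 19S cap has a base, whose ATPases unfold the substrate, and a lid, which removes ubiquitin. Plasma cells make large amounts of antibody, and myeloma is treated with drugs that block the PSMB5 site. Transcription of the subunit genes is known to be raised by NFE2L1 through antioxidant response elements when the proteasome is inhibited.

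Promoter sequences are shown for PSMB5 and for the immunoproteasome subunits because an interferon motif is in some of them and not in others, and for PSME1 and PSME2 because these encode the interferon-induced 11S activator. Each runs 5′ to 3′ on the gene's own strand and ends 15 bases into the transcript, with 250 bases before the annotated start for the PSMB genes and 120 for PSME1 and PSME2. The sequences are from RefSeq (GRCh38.p14). Capitals mark matches, on either strand, to the antioxidant response element core TGANNNNGC, to CCAAT, and to an interferon motif, GAAA followed by any 2 bases and GAAA again. PSMB5 and PSMB8 each have 2 annotated starts.
PSMB5, first start (chr14:23035206-23035470, minus strand): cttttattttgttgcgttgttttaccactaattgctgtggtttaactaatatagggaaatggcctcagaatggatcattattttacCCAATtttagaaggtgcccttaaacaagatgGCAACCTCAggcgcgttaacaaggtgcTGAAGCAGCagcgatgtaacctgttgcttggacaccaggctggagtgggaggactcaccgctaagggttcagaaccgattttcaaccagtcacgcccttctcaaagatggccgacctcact
PSMB5, second start (chr14:23034886-23035150, minus strand): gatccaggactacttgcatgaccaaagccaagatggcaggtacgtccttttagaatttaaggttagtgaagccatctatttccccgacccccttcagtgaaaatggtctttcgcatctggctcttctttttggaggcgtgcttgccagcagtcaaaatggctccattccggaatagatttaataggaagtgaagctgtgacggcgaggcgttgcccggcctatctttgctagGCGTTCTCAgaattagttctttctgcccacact
PSMB8, first start (chr6:32844665-32844929, minus strand): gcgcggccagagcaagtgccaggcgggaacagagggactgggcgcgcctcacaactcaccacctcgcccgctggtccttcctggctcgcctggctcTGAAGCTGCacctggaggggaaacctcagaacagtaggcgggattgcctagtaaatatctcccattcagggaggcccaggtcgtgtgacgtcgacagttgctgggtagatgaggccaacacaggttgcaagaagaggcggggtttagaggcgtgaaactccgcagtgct
PSMB8, second start (chr6:32844033-32844297, minus strand): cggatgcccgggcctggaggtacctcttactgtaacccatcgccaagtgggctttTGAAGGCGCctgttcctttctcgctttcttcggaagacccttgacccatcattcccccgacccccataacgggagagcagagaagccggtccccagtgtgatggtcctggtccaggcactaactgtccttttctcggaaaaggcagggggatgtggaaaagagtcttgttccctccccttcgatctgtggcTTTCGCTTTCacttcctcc
PSMB9 (chr6:32853942-32854206, plus strand): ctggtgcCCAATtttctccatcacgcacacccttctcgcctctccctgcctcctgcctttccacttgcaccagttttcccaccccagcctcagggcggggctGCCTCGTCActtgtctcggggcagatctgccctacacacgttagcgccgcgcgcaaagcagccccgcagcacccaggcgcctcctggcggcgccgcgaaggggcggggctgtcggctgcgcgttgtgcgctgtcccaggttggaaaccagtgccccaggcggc
PSMB10 (chr16:67936836-67937100, minus strand): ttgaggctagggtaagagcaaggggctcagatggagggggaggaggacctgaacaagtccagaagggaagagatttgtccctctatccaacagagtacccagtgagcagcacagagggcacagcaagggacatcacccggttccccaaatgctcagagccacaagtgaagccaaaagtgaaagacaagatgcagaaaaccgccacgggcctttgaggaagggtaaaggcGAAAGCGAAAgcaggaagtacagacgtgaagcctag
PSME1 (chr14:24136074-24136208, plus strand): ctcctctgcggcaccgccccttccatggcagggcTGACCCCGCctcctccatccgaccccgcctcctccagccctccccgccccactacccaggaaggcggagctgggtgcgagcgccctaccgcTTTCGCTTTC
PSME2 (chr14:24146596-24146730, minus strand): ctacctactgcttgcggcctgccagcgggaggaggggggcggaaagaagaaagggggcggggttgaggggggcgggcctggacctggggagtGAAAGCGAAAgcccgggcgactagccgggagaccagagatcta

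The leftmost base of the interferon motif stood 21 bases before the annotated start of PSMB10, 28 before that of PSME2, 4 before the second start of PSMB8 and 5 bases after that of PSME1. It was in neither PSMB5 window and not in that of PSMB9. Of 54 windows (250 bases before to 50 after a start) available for 43 members, 7 held it (13.0%), against 3.17% of 22131 windows of all protein-coding genes. Those windows belonged to PSMA4, PSMB4, PSMB8, PSMB10, PSME1, PSME2 and PSMG4. The antioxidant core TGANNNNGC was in 34 member windows (63.0%, against 42.0% of all windows), and CCAAT in 23 (42.6%, against 34.6%). The GC box GGGCGG was in 39 member windows (72.2%, against 56.3%), and a loose NF-kB motif (GGG, any 5 bases, CC) in 36 (66.7%, against 66.6%). Median GC content was 62.0% in member windows and 62.3% in all windows. Of the motifs that ATF4 can bind, the cAMP response element TGACGTCA was in 0 member windows, against 2.26% of all windows. The C/EBP-ATF response element TGATGCAA was also in 0, against 0.678%. With 1 free base (TGATGNAA, which includes the former), only PSMF1 held it, 1 window (1.85%) against 2.7%. These matches describe letters in fixed windows and were not tested.

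Accessible chromatin at these promoters was present in every library. A listed peak overlapped an annotated promoter window in all 6 libraries for 42 of the 43 members that have one (97.7%), against 10431 of 15811 protein-coding genes (66.0%). The exception was PSMB11, the thymus-specific catalytic subunit. Windows of PSMB1, PSMB6, PSMB7, PSMA7, PSMD4 and PSMG3 were not analysed here. The strongest listed peak within 10 kb of a gene end, by the authors' −log10 q, had a median over the members of 216, 241 and 222 in control libraries 1, 2 and 3. It was 107, 106 and 130 in knockdown libraries 1, 2 and 3. The medians over all genes tested were 160, 169 and 164 and then 80.8, 79.6 and 94.5. These values move with sequencing depth, and as percentiles among the genes of the same library the member medians lay between 62.6 and 67.9 in every library.

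The knockdown lists were shallower than the control lists and covered less DNA, in more and narrower peaks. Listed peaks covered 69.3 ± 2.0 Mb in the controls against 63.5 ± 0.456 Mb after knockdown (SD, n = 3 each). Distinct peaks numbered 135070 to 161433 in the controls and 163937 to 171685 in the knockdown lists. Median widths over listed summits were 480 to 626 bp and 324 to 369 bp. A peak with several summits counts several times in these widths, so they are not medians over distinct peaks. The background pileup, a measure of depth recovered from each list, was 3.17 ± 0.366 and 2.39 ± 0.208. Covered length and background pileup did not overlap between the groups, and an exact two-sided permutation test gave p = 0.1 for each, the smallest that 3 against 3 allows. Depth and knockdown therefore cannot be told apart in these lists. All 9 plasma cell markers had listed peaks in every library, but so did all 5 B cell, 6 T and NK cell and 5 myeloid markers, so the presence of peaks does not tell the cell types apart. For the gene comparison, the length of DNA under listed peaks was summed per gene, up to 10 kb from each gene end. This length was scaled to the mean total covered length and compared on the log2(value + 200 bp) scale with limma.

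No proteasome gene passed the test, and the differences at the members were centred where those of all genes were. All 49 were covered in every library, and all passed the filter of coverage in at least 3 libraries. At an adjusted p under 0.05, limma called 0 members lower and 0 higher, as it did over all 18602 genes tested (0.0% each way). At an unadjusted p under 0.05, 3 members were lower, PSMA6, PSMD11 and PSME3IP1, against 9.08% of all genes. PSMB3 and PSMB4 were higher, 2 members against 4.89% of all genes. The median log2 difference, knockdown minus control, was −0.02 over the members and −0.02 over all genes. It was negative for 28 members (57.1%, against 55.0% of all genes) and spanned −0.49 to 0.37. The 3 control libraries lay wholly above the 3 knockdown libraries for 5 members (PSMA1, PSMA6, PSMD11, PSME3 and PSME3IP1), against 11.9% of all genes, and wholly below for 2 (PSMB3 and PSMB4), against 7.69%. In simulated data with 100 genes shifted by each size, limma recovered 9% of genes shifted by 0.5 and 69% of those shifted by 1 (log2). Under that setting a change of 0.5, about the largest seen at a member, would mostly be missed. The share found depends on how many genes differ, which is not known here. With peaks of −log10 q of at least 5 alone, 18 of the 49 members were called higher. That setting called 5284 of all genes higher and 545 lower, where the main setting tested 18602. This setting raised the median difference of all genes as well as that of the members, so a call under it is shared with many other genes. Whether members were called more often than other genes was not tested. Values of the called members under this setting, called the stricter peak threshold here, are given with each class.

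**Figure D1:**
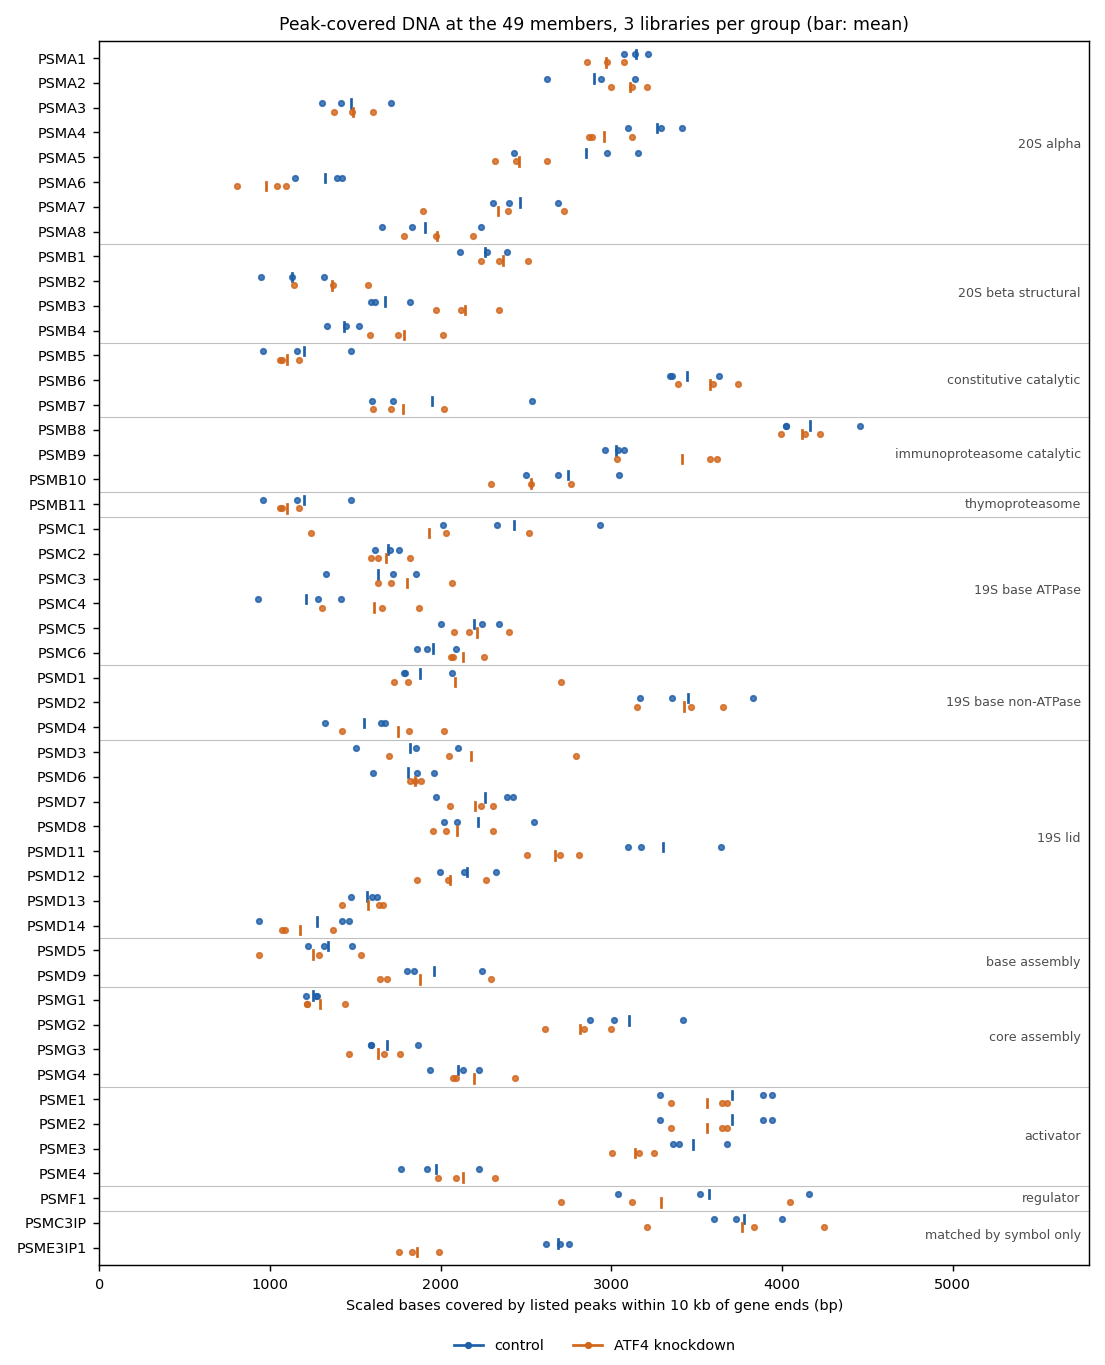
Scaled length under listed peaks, up to 10 kb from the gene ends (x axis, bp), for each of the 49 members (y axis, grouped by role), with points for the libraries and bars for group means, blue for control and orange for ATF4 knockdown. Coverage runs from a mean of 1147 bp at PSMB5 and PSMB11 to 4141 bp at PSMB8, and the libraries of both groups are mixed at nearly all members.

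Many windows hold more than the member itself. At least 1 other protein-coding gene end lay within the window of 43 members, and for 7 members the strongest peak was nearest to another gene in all 6 libraries. For 29 members the strongest peak overlapped an end of the member itself in all 6. PSMB5 and PSMB11 have identical covered bases, as do PSME1 and PSME2, and the windows of PSMB8 and PSMB9 overlap, so these are not independent values. The annotated starts of PSMA1 and PSMA6 and a second start of PSMG2 lie more than 10 kb from both gene ends in the gene table, so their covered lengths leave those promoters out.

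Among the constitutive catalytic genes, the control and knockdown libraries overlapped in covered length at each of the 3. At PSMB5, which encodes the chymotrypsin-like site, it was 1475, 958 and 1156 bp in the controls against 1167, 1059 and 1068 bp after knockdown. The groups overlapped, with the highest and the lowest library both controls, and the log2 difference was −0.09 ± 0.16 (SE, adjusted p = 0.851, limma). At PSMB6, the caspase-like subunit, it was 3355, 3341 and 3631 bp in the controls against 3597, 3391 and 3744 bp after knockdown, also overlapping (0.05 ± 0.07, adjusted p = 0.805, limma). At the stricter peak threshold PSMB6 was called higher, by 0.36 (adjusted p = 0.0149, limma). At PSMB7, the trypsin-like subunit, control library 3 stood above the rest: the values were 1598, 1722 and 2533 bp against 1602, 1708 and 2020 bp (−0.10 ± 0.17, adjusted p = 0.838, limma).

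The mean covered length of the immunoproteasome genes was longer than that of the constitutive genes in each library, though PSMB6 was longer than PSMB9 and PSMB10 in all 6. PSMB8 replaces PSMB5 and had 4021, 4022 and 4454 bp in the controls against 3991, 4135 and 4223 bp after knockdown (−0.02 ± 0.07, adjusted p = 0.950, limma). PSMB9 replaces PSMB6 and had 2960, 3038 and 3073 bp in the controls against 3579, 3034 and 3620 bp after knockdown. Knockdown libraries 1 and 3 were above every control and knockdown library 2 was not, with a difference of 0.16 ± 0.09 (adjusted p = 0.453, limma). A weak peak 1.24 kb beyond PSMB9 was listed in those same 2 libraries (−log10 q of 7.4 and 2.88) and in none of the others. PSMB10 replaces PSMB7 and had 2688, 2502 and 3047 bp against 2762, 2297 and 2526 bp (−0.11 ± 0.10, adjusted p = 0.691, limma). At the stricter peak threshold PSMB8 (0.29, adjusted p = 0.0151) and PSMB9 (0.37, adjusted p = 0.0236) were called higher by limma. The mean over PSMB8, PSMB9 and PSMB10 was 1.5, 1.59 and 1.44 times that over PSMB5, PSMB6 and PSMB7 in control libraries 1, 2 and 3. In knockdown libraries 1, 2 and 3 the ratio was 1.62, 1.54 and 1.52, and the groups overlapped. PSMB8, PSMB9, TAP1 and TAP2 adjoin in the MHC region of chromosome 6, and this neighbourhood enters the ratio. So do the neighbours of PSMB6. The region over the end of PSMB6 itself spans 618 bp, and the other regions in its window lie nearest to GLTPD2, C17orf114 or PLD2.

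By −log10 q, the regions over the ends of the immunoproteasome genes ranked above those of the constitutive genes, and by fold they did not throughout. Each region was ranked by −log10 q as a percentile among the 24873 regions found in all 6 libraries within gene windows. Such a rank places a region within its own list, and whether it is free of depth was not tested. Over the ends of the immunoproteasome genes, mean ranks in control and knockdown libraries were 84.4 and 84.4 at PSMB8, 85.8 and 90.8 at PSMB9, and 94.2 and 92.3 at PSMB10. In knockdown library 2 the PSMB10 region ranked by a peak 643 bp from the gene end (−log10 q of 194). The peak over the PSMB10 promoter in that library had a −log10 q of 34.9. The PSMB8 region (chr6:32843910-32845343) also spans an end of TAP1, as does the PSMB9 region (chr6:32852960-32855000). Mean ranks were 69.6 and 67.2 at PSMB5 and 71.2 and 73.1 at PSMB7. At these 5 genes the libraries of the groups overlapped. The fold over background at the PSMB5 region was 15.7, 16.6 and 15.6 in the controls, above the 15.3, 15.2 and 14.4 of the PSMB8 region and the 13.9, 13.1 and 13.3 of the PSMB9 region.

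PSMB6 had the weakest region of the 6, and its ranks did not overlap between the groups. The region over its annotated end (chr17:4795856-4796473) ranked 13.6, 16.7 and 27.7 in the controls against 43.5, 43.5 and 45.0 after knockdown. Every knockdown library was above every control, and the mean was 24.7 points higher. Its −log10 q overlapped between the groups, at 20.6, 29.3 and 38.6 in the controls against 27.9, 29.2 and 38.2 after knockdown. The fold over the local background was 5.21, 5.96 and 6.56 against 8.72, 8.60 and 9.19. The recovered pileup was 53, 67 and 82 tags in the controls against 45, 48 and 61 after knockdown, so the higher fold came with fewer tags over a lower local background. A second region 1.93 kb from PSMB6 and nearest to C17orf114 (chr17:4800420-4801463) ranked the other way, with −log10 q at 106, 154 and 132 in the controls against 18.1, 31.0 and 32.1 after knockdown. Its mean rank was 62.7 in the controls against 39.5 after knockdown, 23.2 points lower. Both regions were singled out after their values were seen and carry no test.

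**Figure D2:**
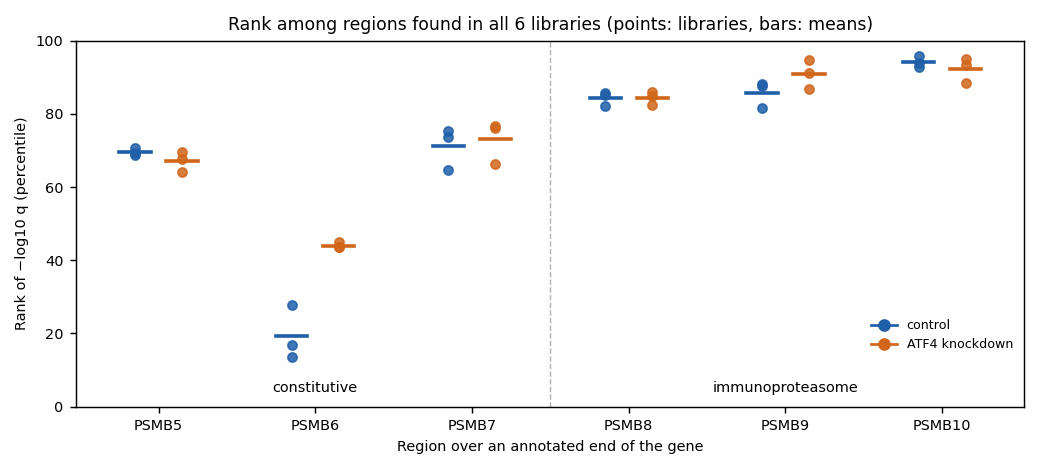
Rank of the region over an annotated end of each catalytic gene (y axis, percentile of −log10 q among regions found in all 6 libraries), with points for libraries and bars for means, blue for control and orange for ATF4 knockdown. PSMB6 is the lowest of the 6 genes and the one whose groups do not overlap (means 19.3 and 44.0), and every library of the other 5 genes is at 64.0 or above. In knockdown library 2 the PSMB10 region ranks by a peak 643 bp from the gene end.

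**Figure D3:**
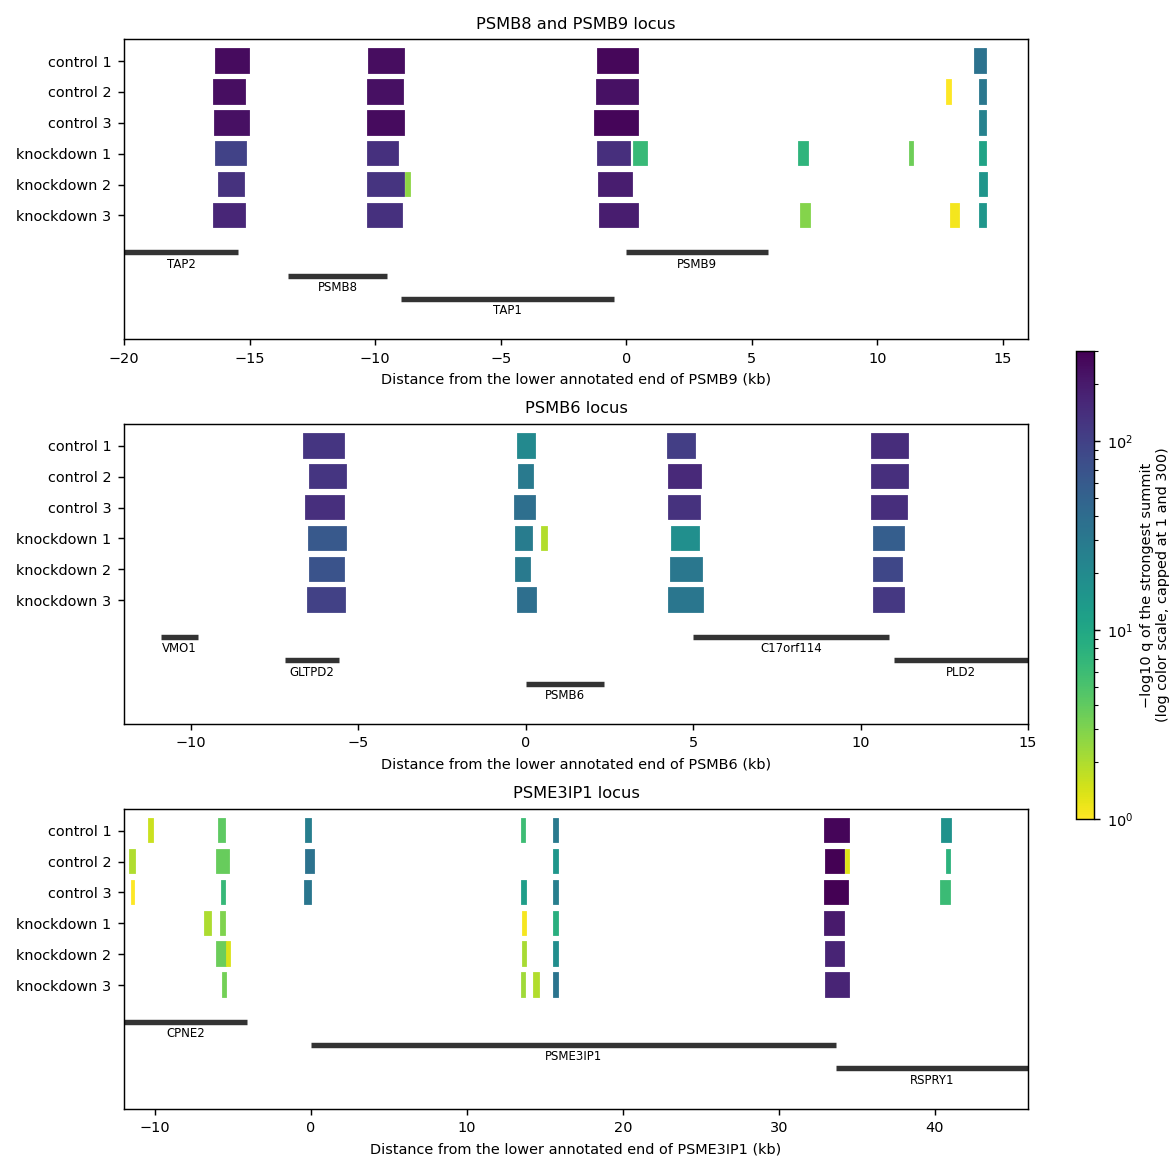
Listed peaks by library (rows) at the PSMB8 and PSMB9, PSMB6 and PSME3IP1 loci, placed by distance from the lower annotated end of PSMB9, PSMB6 or PSME3IP1 (x axis, kb) and coloured by −log10 q on a log scale, with genes as bars below. At PSMB6 the region 1.93 kb beyond the gene is paler in the knockdown libraries, and at PSME3IP1 the region over the lower end appears in the 3 controls and in no knockdown library.

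Over all members, 101 of 187 regions were found in all 6 libraries (54.0%, against 43.5% of 57165 regions in windows of all genes). Among those 101, ranks did not overlap between the groups for 11 that were lower in the knockdown libraries, against 14.0% of all such regions, and for 15 that were higher, against 14.8%. A mean rank at least 20 points lower was seen at 2 member regions, against 1.49% of all, and at least 20 points higher at 1, against 1.29%. These were the PSMB6 regions and a region in the window of PSME3, an activator subunit, 9.4 kb from its end and inside AOC3 (chr17:42853165-42854238). There −log10 q was 166, 215 and 164 in the controls against 16.7, 34.1 and 47.0 after knockdown, and the mean rank was 74.0 and 43.1.

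The structural beta subunits were the 1 class of 3 or more genes in which every member had a positive difference. Of all 18602 genes tested, 8380 had a positive difference. PSMB1 (−0.06 without scaling) and PSMB2 (0.0 at lowest) each kept their sign in 16 of 17 alternative settings. The differences of the 4 structural beta genes ran from 0.06 to 0.32, with a median of 0.25, and none passed the test. At the stricter peak threshold PSMB4 (0.43, adjusted p = 0.0151) and PSMB1 (0.32, adjusted p = 0.0161) were called higher by limma. PSMB3 had 1817, 1591 and 1617 bp in the controls against 2121, 1970 and 2342 bp after knockdown, 1675 ± 124 and 2144 ± 187 (SD, n = 3 each). All knockdown libraries were above all controls, and the difference was 0.32 ± 0.11 (unadjusted p = 0.0156, adjusted p = 0.235, limma). Part of the added length was a weak region inside PSMB3, 1.53 kb from its end (chr17:38762330-38762690), listed only in the knockdown libraries, with −log10 q at 0.987, 2.55 and 3.88. PSMB4 had 1443, 1523 and 1331 bp against 1585, 2013 and 1752 bp, again with no overlap (0.28 ± 0.12, unadjusted p = 0.0464, adjusted p = 0.349, limma). PSMB2 was at 947, 1314 and 1126 bp against 1141, 1573 and 1370 bp, with overlap (0.23 ± 0.16). PSMB1 differed least of the 4, by 0.06 ± 0.09.

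The alpha subunits form the gated outer rings and had a median difference of −0.08 over 8 genes, 5 of them negative. PSMA6 had 1390, 1422 and 1146 bp in the controls against 1092, 804 and 1038 bp after knockdown, 1319 ± 151 and 978 ± 153 (SD, n = 3 each). All controls were above all knockdown libraries, and the difference was −0.37 ± 0.15 (unadjusted p = 0.0371, adjusted p = 0.319, limma). The regions found in the PSMA6 window all lay inside the gene. One of them, 2.73 kb from a gene end (chr14:35281286-35281936), had −log10 q of 25.1, 23.9 and 21.5 in the controls against 2.29, 2.51 and 8.61 after knockdown, and a mean rank of 14.9 and 4.2. The peak over an annotated PSMA6 promoter, which lies outside the window, had −log10 q of 174, 191 and 202 against 91.8, 78.9 and 117. PSMA1 had 3139, 3074 and 3214 bp against 2854, 3072 and 2974 bp, just without overlap (−0.08 ± 0.07). PSMA5 (−0.19 ± 0.11, adjusted p = 0.481, limma) and PSMA4 (−0.13 ± 0.08, adjusted p = 0.486, limma) overlapped between the groups. PSMA2, PSMA3, PSMA7 and the testis form PSMA8 lay between −0.08 and 0.10. At the stricter peak threshold limma called PSMA2 (0.39) and PSMA1 (0.22) higher, the latter reversed.

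In the 19S base, the 6 ATPase genes had a median of 0.063, with 4 positive. PSMC4 had the strongest peak of all members, at a mean percentile among genes of 98.9 in the controls and 99.0 after knockdown. Its −log10 q was 627, 654 and 561 in the controls against 317, 314 and 402 after knockdown. Its covered length was nevertheless short, 1414, 929 and 1283 bp in the controls against 1656, 1875 and 1302 bp after knockdown, and the region over its own end was the 1 region in its window with a −log10 q of at least 2. The groups overlapped, and the difference of 0.37 ± 0.17 had an unadjusted p of 0.0655 (adjusted p = 0.400, limma). PSMC1 had the largest standard error of the members, with 2934, 2014 and 2331 bp against 1242, 2516 and 2029 bp (−0.34 ± 0.22, adjusted p = 0.555, limma). PSMC2, PSMC3, PSMC5 and PSMC6 lay between −0.01 and 0.13. PSMC2 (0.39, reversed), PSMC6 (0.39) and PSMC3 (0.32) were called higher at the stricter peak threshold. Of the non-ATPase subunits, PSMD1 and the ubiquitin receptor PSMD4 had differences of 0.11 ± 0.16 and 0.15 ± 0.15, and the scaffold PSMD2 of −0.01 ± 0.09.

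The lid genes had a median of −0.05 over 8 genes, and PSMD11 had the smallest p among them. PSMD11 had 3642, 3094 and 3172 bp in the controls against 2506, 2698 and 2811 bp after knockdown, 3303 ± 297 and 2672 ± 154 (SD, n = 3 each). The groups did not overlap, and the difference was −0.28 ± 0.09 (unadjusted p = 0.0117, adjusted p = 0.218, limma). With windows of 50 kb in place of 10 kb it was −0.40 with an adjusted p of 0.0349 (limma), under a setting in which 383 genes were called lower. The region over its lower-coordinate end was listed in every library, with −log10 q values of 289, 343 and 332 against 166, 183 and 246. Its mean rank was 91.4 in the controls and 93.9 after knockdown, with overlap between the groups. A flanking region 2.29 kb outside the gene (chr17:32441764-32442224) was found in the controls only, with −log10 q of 12.6, 11.4 and 9.82. At the other end, 0.12 kb inside the gene, a region (chr17:32482573-32483199) had −log10 q of 19.3, 33.5 and 21.8 in the controls, 3.05 in knockdown library 3 and no listed peak in the other two. PSMD14, the deubiquitinase of the lid, had 937, 1421 and 1461 bp against 1369, 1085 and 1067 bp and did not differ beyond its spread (−0.09 ± 0.18). PSMD3 was at 0.22 ± 0.18 and PSMD6, PSMD7, PSMD8, PSMD12 and PSMD13 lay between −0.07 and 0.03. PSMD3 (0.51), PSMD6 (0.37), PSMD13 (0.31) and PSMD8 (0.28) were called higher at the stricter peak threshold.

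Regions found in 1 group only were few. There were 4 in the controls alone among 187 member regions (2.14%, against 1.56% of all regions), and 0 in the knockdown libraries alone, against 0.0752%. Without control library 1 the counts were 8 and 1, and without knockdown library 2 they were 6 and 2. Without knockdown library 1 they were 5 and 1. Leaving out a library loosens the rule for every region, so these counts cannot fall and say nothing particular about the members. Besides that at PSMD11, a region inside PSMD12 (chr17:67359951-67360205) was weak, with −log10 q of 4.6, 7.62 and 5.61. The remaining 2 lay in the window of PSME3IP1, which encodes a nuclear protein that binds the activator subunit PSME3.

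PSME3IP1 had the smallest p of the members. Its covered length was 2696, 2750 and 2616 bp in the controls against 1833, 1990 and 1754 bp after knockdown, 2687 ± 67.4 and 1859 ± 120 (SD, n = 3 each). The groups were well apart, and the difference was −0.49 ± 0.09 (unadjusted p = 0.000436, adjusted p = 0.108, limma). Without scaling for total covered length it was −0.61 with an adjusted p of 0.0363 (limma), and with windows of 50 kb −0.45 with 0.0444 (limma). A region of 570 bp at its lower-coordinate end, opposite its annotated promoter (chr16:57152070-57152639), was found in the controls only. In this region the listed peak crossed the gene end only in control library 2. There −log10 q was 26.8, 34.8 and 31.9, the fold over background 9.55, 11.9 and 9.32, and the recovered pileup 39, 44 and 49 tags. The second region (chr16:57192908-57193525) lay 6.79 kb away inside the neighbouring gene RSPRY1, with −log10 q of 16.4, 7.72 and 6.14. The strong region over the annotated promoter of PSME3IP1, shared with RSPRY1, was listed in every library, with −log10 q values of 277, 336 and 375 against 201, 170 and 171. Its mean rank was 91.6 in the controls and 92.2 after knockdown, with overlap between the groups. PSMC3IP, the other gene matched by symbol only, was among the 3 most covered members and differed by −0.01 ± 0.10.

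**Figure D4:**
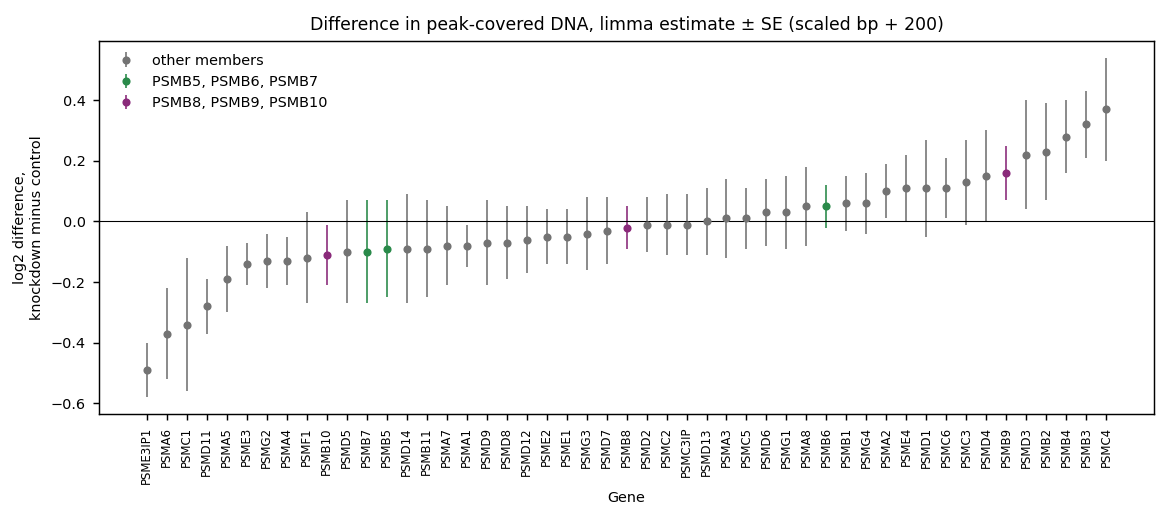
log2 difference in scaled covered length, knockdown minus control, with its limma standard error as a bar (y axis) for each member in order of the difference (x axis), constitutive catalytic genes in green and immunoproteasome genes in purple. The values run from −0.49 at PSME3IP1 to 0.37 at PSMC4, and 28 are negative. The catalytic genes lie between −0.11 at PSMB10 and 0.16 at PSMB9.

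The activators open the gate of the core particle, and none of their genes passed the test. PSME1 and PSME2 share their covered bases, 3888, 3284 and 3940 bp in the controls against 3346, 3679 and 3648 bp after knockdown, and overlapped (−0.05 ± 0.09). PSME3, which encodes the nuclear 11S activator, had 3360, 3395 and 3678 bp against 3162, 3004 and 3250 bp, with no overlap (−0.14 ± 0.07, unadjusted p = 0.0947, adjusted p = 0.451, limma). PSME4, the PA200 activator, was at 0.11 ± 0.11, and with windows of 50 kb it turned to −0.42 (adjusted p = 0.0462, limma). PSME1 and PSME2 turned to 0.27 at the stricter peak threshold (adjusted p = 0.0315, limma). The inhibitor PSMF1 had the widest spread in the knockdown group, 3119, 4045 and 2705 bp, beside 4160, 3036 and 3517 bp in the controls (−0.12 ± 0.15). The core assembly chaperones PSMG1 to PSMG4 lay between −0.13 and 0.06, and the base assembly chaperones PSMD5 and PSMD9 at −0.10 and −0.07, all with overlapping groups. PSMD5 (0.34) and PSMG1 (0.27) were called higher at the stricter peak threshold.

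A list of 30 further genes of the pathway, holding assembly factors, receptors, ubiquitin genes and regulators of subunit transcription, had a median difference of −0.04. limma called 0 of them at an adjusted p under 0.05. At an unadjusted p under 0.05, 5 were lower, against 9.08% of all genes, and 1 was higher, against 4.89%. POMP, the maturation factor of the core particle, had 1259, 1278 and 1365 bp in the controls against 972, 894 and 1039 bp after knockdown (−0.36 ± 0.12, adjusted p = 0.245, limma). SEM1, a small lid subunit, had 1374, 1505 and 1564 bp against 1135, 1149 and 1162 bp (−0.32 ± 0.11, adjusted p = 0.253, limma). DDI2, the protease that activates NFE2L1, had 2272, 1902 and 1924 bp against 1164, 1499 and 1449 bp (−0.51 ± 0.13, adjusted p = 0.160, limma). In all 3 the controls lay wholly above the knockdown libraries, as they did for 11.9% of all genes. ECPAS, an adaptor of the 26S particle, was at −0.35 ± 0.12 and the ubiquitin shuttle gene UBQLN2 at −0.75 ± 0.09 (adjusted p = 0.242 and 0.0556, limma). NFE2L1 itself was at −0.11 ± 0.08. Of 9 genes that process antigens beside the immunoproteasome, none passed at an unadjusted p under 0.05, and they lay between −0.08 and 0.09, with TAP1 and TAP2 both at 0.09.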

How the data were processed

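Peak lists of 6 ATAC-seq libraries of KMS-11 were used, 1 per library. The submitters' processing notes name MACS2 and hg38. Not given in the sources used here are the settings and version of MACS2, the aligner, and whether reads were shifted for Tn5. The authors' fold is a ratio of the pileup at a summit to its local background. The authors' −log10 p and −log10 q are those of the peak caller, for 1 library at a time.

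Genes came from RefSeq on GRCh38.p14, whose gene table has no strand, and promoter sequences from RefSeq windows of 250 bases before to 50 after a start. Covered bases were summed within 10 kb of either gene end, scaled to the mean total, and tested as log2(value + 200 bp) with limma 3.58.1 (R 4.3.3, trend and robust, Benjamini-Hochberg, threshold 0.05) over 18602 genes covered in at least 3 libraries. The scale understates differences of genes with little covered DNA. Regions were built by merging peaks with a −log10 q of 2 or more over all libraries. A region was found in a library where such a peak overlapped it, and missing where no listed peak did. Pileups were recovered from fold and −log10 p within 0.01. The fit was tested on simulated data with 100 genes changed by each size (9% of 0.5 and 69% of 1 log2 changes found). The members, gene lists and motifs were chosen with earlier results of these data known, and the named genes follow a written rule: the 6 catalytic genes, the 10 smallest p, the 3 longest and 3 shortest covered, up to 6 pathway genes with an unadjusted p under 0.05, and 3 regions found in 1 group only. Items outside it were chosen after their values were seen. Counts over the pathway list include 1 gene that is not reported here. Same-numbered libraries did not deviate together, so the numbers were not used to pair.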

Additional observations from a re-analysis of the deposited data

How the results depend on the processing

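Calls at the members depended on the processing. Without scaling, 1 member was called lower, with 690 of all genes lower and 48 higher, and the median difference was −0.14 for the members and for all genes, against −0.02 for both with scaling. Windows of 50 kb called 3 of the 49 members lower (PSME3IP1, PSMD11 and PSME4, the last reversed at −0.42). They called 383 of all genes lower and 428 higher, where the main setting tested 18602. Windows of 2 kb called 2 of all genes lower. An offset of 1000 bp called 5 of all genes lower and 1 higher. With peaks of −log10 q of at least 2, 1 gene was called lower and the member median was 0.10 (0.08 for all genes). With at least 5, 18 of the 49 members were called higher, with 545 of all genes lower and 5284 higher, and the member median was 0.22 (0.19 for all genes). That last setting reversed PSMC2 (0.39), PSMD5 (0.34), PSMB8 (0.29), PSMD8 (0.28), PSME1 and PSME2 (0.27 each) and PSMA1 (0.22). The cause was not tested. The immunoproteasome ratio was 1.54, and 2.1, 1.32 and 1.67 with 2 kb, 50 kb and a −log10 q of at least 5. With any listed peak taken as present, 1 member region was found in the knockdown libraries only. Leaving out 1 library in turn gave 4 to 8 regions in the controls only (8 without control replicate 1) and 0 to 2 in the knockdown libraries only (2 without knockdown replicate 2). Fewer libraries make that rule easier to meet for any region. With 1 library left out, limma called 0 members throughout. With a replicate block, 0 members and 0 of all genes were called, and deviations of same-numbered libraries correlated at 0.0166, 0.00112 and 0.0262. PSMB11, PSMG4 and PSMA6 had too little covered DNA to be tested with 2 kb windows. The knockdown lists were shallower and covered less DNA, and the part of depth in these values was not tested.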
